A study of Homo sapiens with 5 samples.

Results

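Intermediately methylated CpG islands are the autosomal windows of 1000 bases annotated to CpG islands, which they overlap in full or in part, whose methylation level, averaged over the 5 libraries of the series, lay between 30% and 70%. They were chosen on this average, with a coverage of at least 100 in every library, and 2632 windows met the rule. That is 5.82% of the 45235 autosomal island windows of the same coverage and a small part of the 288391 windows measured. The level itself is therefore what selected the windows and is given below as a description. A further 195 island windows of the same level were left out for coverage.

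Reduced representation bisulfite sequencing (RRBS) was performed on 201B7 cells, an established line of human induced pluripotent stem cells (iPSCs) with the genotype given as wild type. RRBS cuts DNA at CCGG, treats the fragments with bisulfite, which changes unmethylated cytosines, and gives as methylation level the share of CpG cytosines left unchanged. The cells were exposed for 48 h to 0.1% DMSO as the vehicle control, to 1 nM etoposide, to 1 µM propyl gallate, to 1 µM theophylline or to 10 nM 5-aza-dc. Etoposide inhibits topoisomerase II, propyl gallate is an antioxidant food additive, theophylline is a methylxanthine bronchodilator, and 5-aza-dc is a cytidine analogue that traps DNA methyltransferases. Each condition had 1 library of 1 cell line, so there was no spread between replicates to compare a difference with, and tests on calls compare libraries and not conditions. In these windows a library held a median of 1197 to 1448.5 cytosine calls, which gives a median 95% interval of 5.00 to 5.46 percentage points in width (Wilson). Several calls can come from 1 read or its PCR copies, so all intervals given cover counting error only. Promoter windows of the pluripotency genes LIN28A, DNMT3B and SALL4 were low in every library, as the lowest promoter window of each lay under 3% throughout. The highest promoter window reached 7.05% for LIN28A and 5.04% for DNMT3B, both with 5-aza-dc. The single promoter window of L1TD1 lay between 10.3% and 15.98%, and that of ZFP42 between 37.2% and 60.9%. Both windows annotated as promoter of POU5F1 lay between 83.2% and 95.4%. They are at the outer end of the gene span in the deposited annotation. NANOG, DPPA4 and TDGF1 had no promoter window.

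CpG islands are short stretches rich in CpG, and most of them stay unmethylated when they lie at promoters. Methylation is copied to the new strand at each cell division by the maintenance enzyme DNMT1, and an island can lie between the extremes for several reasons. At an imprinted gene 1 parental copy is methylated and the other is not. A window can also hold the edge between methylated and unmethylated DNA, or cells of a culture can differ. RRBS levels summed over a window cannot tell these arrangements apart.

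The first sequences shown are promoters that lie wholly inside an intermediately methylated window, 250 bases before to 50 bases after the gene start, from RefSeq (GRCh38.p14), with every CpG in capitals. PLAGL1, MEST, SNRPN and GNAS are imprinted genes whose windows are described below. The windows of the SNRPN and GNAS promoters are given to these genes by RefSeq only. They are therefore not among the 19 windows of the imprinted list compared below. The PLAGL1 promoter is at chr6:144008210-144008509 on the minus strand and has the same sequence as that of HYMAI. The MEST promoter is at chr7:130491079-130491378, that of SNRPN at chr15:24956050-24956349 and that of GNAS at chr20:58888163-58888462, all on the plus strand.
PLAGL1: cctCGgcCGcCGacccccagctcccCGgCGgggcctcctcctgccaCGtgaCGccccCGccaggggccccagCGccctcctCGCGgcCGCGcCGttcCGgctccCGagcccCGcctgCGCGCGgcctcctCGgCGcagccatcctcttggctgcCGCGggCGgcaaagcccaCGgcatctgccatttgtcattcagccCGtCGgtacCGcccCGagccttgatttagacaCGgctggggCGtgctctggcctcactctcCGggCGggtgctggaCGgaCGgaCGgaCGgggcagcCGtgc
MEST: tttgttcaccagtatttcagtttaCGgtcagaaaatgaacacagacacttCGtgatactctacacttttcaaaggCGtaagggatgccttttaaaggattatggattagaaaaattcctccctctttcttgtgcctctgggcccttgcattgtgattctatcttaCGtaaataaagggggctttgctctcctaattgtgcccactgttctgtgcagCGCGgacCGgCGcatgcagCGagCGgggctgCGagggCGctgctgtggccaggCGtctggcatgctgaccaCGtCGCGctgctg
SNRPN: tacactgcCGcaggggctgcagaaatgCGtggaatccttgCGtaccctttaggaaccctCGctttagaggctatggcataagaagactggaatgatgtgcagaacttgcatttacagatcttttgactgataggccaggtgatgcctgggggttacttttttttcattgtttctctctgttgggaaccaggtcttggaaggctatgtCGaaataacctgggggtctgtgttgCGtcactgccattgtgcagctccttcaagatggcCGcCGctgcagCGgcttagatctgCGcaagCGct
GNAS: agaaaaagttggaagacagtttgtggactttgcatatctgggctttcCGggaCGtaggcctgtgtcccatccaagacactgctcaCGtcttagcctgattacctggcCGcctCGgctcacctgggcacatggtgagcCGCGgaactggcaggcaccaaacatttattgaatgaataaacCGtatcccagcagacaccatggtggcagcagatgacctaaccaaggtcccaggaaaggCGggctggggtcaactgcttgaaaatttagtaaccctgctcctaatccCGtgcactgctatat

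Among non-imprinted genes, the promoters shown are from windows with some of the largest falls after 5-aza-dc. They belong to ZFP42 (chr4:187995521-187995820), also known as REX1 and used as a pluripotency marker, to GJD3-AS1 (chr17:40362595-40362894) and to ATP6V1G1, a subunit of the vacuolar proton pump (chr9:114587519-114587818), all on the plus strand.
ZFP42: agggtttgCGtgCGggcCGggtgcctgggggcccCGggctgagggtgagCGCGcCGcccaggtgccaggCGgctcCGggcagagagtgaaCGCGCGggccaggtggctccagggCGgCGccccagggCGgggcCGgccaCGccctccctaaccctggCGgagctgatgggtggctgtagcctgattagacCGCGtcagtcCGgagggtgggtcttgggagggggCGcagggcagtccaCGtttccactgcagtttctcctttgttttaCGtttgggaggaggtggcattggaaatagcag
GJD3-AS1: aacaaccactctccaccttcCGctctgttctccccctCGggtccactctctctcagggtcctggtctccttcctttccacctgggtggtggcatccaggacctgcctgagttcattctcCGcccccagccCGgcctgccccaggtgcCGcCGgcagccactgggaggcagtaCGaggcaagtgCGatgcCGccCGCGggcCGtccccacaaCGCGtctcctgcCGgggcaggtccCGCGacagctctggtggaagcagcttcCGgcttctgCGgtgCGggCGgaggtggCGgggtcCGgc
ATP6V1G1: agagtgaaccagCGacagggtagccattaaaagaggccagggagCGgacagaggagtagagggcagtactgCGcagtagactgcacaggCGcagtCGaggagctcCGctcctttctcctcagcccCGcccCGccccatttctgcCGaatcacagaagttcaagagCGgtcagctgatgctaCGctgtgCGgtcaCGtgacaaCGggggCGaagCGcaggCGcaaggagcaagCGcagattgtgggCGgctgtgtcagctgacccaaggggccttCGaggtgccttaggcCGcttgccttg

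The 7 promoters differed widely in CpG content. The PLAGL1 promoter has 39 CpGs in its 300 bases and a GC content of 75.7%, while SNRPN has 11 and GNAS has 10. ZFP42 has 24 CpGs, GJD3-AS1 has 23, ATP6V1G1 has 21 and MEST has 16. The site CCGG, where RRBS cuts, is absent from the printed SNRPN and ATP6V1G1 promoters and occurs 1 time each in MEST and GNAS. The levels given below are those of the whole window and not of the printed bases. Across the series 287 RefSeq promoters lay wholly inside 241 of the intermediately methylated windows, and their median was 22 CpGs (quartiles 16 and 31). The 9662 promoters in island windows under 30% had a median of 29, and the 428 promoters in windows over 70% had a median of 17. The intermediate windows thus lay between the other island classes in the CpG content of their promoters, and likewise in median GC content, at 64.7% against 68.0% and 63.0%. The hexamer TGCCGC, the core of the site bound by the imprint-maintaining zinc finger protein ZFP57, was searched on both strands. It occurred in 26.1% of the 287 promoters, in 28.3% of those in low windows, in 17.1% of those in high windows and in 27.8% of all 10377. The share was thus close to that of all island promoters. The PLAGL1 promoter holds it 2 times, SNRPN 1 time, and GNAS at this start and MEST do not hold it. Of the non-imprinted promoters printed, GJD3-AS1 also holds it 2 times, and ZFP42 and ATP6V1G1 do not hold it.

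Most island windows were at either extreme, with 25004 under 30% and 17599 over 70%. Between these, the 2632 windows were spread almost evenly, with 756 at 30% to 40%, 668 at 40% to 50%, 615 at 50% to 60% and 593 at 60% to 70%. There was no separate peak near 50%. In 1807 windows all 5 libraries individually lay within 30% to 70%. The windows just inside the lower bound are assigned to LINC02913 and EMILIN3, and those just outside it to PKMYT1 and KLHDC4. At the upper bound SLC5A5 and H2BU2P lay just inside and MTA1 and SOX7 just outside. For EMILIN3 the levels were 35.6% in the vehicle control, 29.9% with etoposide, 28.3% with propyl gallate, 32.2% with theophylline and 24.2% with 5-aza-dc, and for KLHDC4 they were 37.4%, 29.8%, 29.5%, 31.6% and 21.6% in the same order. LINC02913 was at 30.5%, 31.6%, 33.3%, 34.6% and 20.2%, and PKMYT1 at 28.1%, 29.7%, 28.6%, 32.8% and 30.8%. SLC5A5 lay between 63.99% and 75.03% and H2BU2P between 62.1% and 79.7%. MTA1 lay between 60.3% and 80.8% and SOX7 between 64.1% and 72.8%. Windows on the same side of a bound thus differed in their single libraries, and the bounds do not mark a gap in the distribution.

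**Figure D1:**
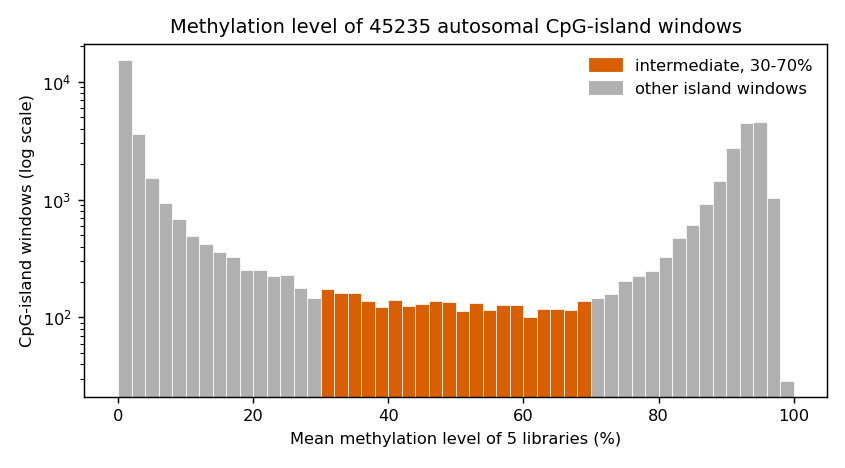
Histogram of the methylation level (mean of the 5 libraries, in %, bins of 2 percentage points) of 45235 autosomal CpG-island windows, with the number of windows on a log axis. The 2632 windows between 30% and 70% (orange) form a flat floor between the peaks at both ends.

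The 2632 windows lay in 2432 distinct islands and were assigned to 1834 gene symbols, while 569 windows had no symbol. They were mostly isolated: 2301 stood alone, 149 runs held 2 adjacent windows and 9 runs held 3 or more. By the authors' annotation 784 windows (29.8%) were in promoters, 652 at intron-exon boundaries, 627 between genes, 244 in introns and 89 in exons. Promoter islands were the section least often intermediate, at 5.22% of their 15026 windows. Chromosome 19, which is rich in zinc finger genes, held 345 windows, 8.15% of its island windows, against 5.82% over all autosomes.

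An island window in the table need only overlap an island, and the intermediate windows overlapped theirs by a median of 501 bases. Windows under 30% overlapped by a median of 700 bases and windows over 70% by 501 bases. Of island windows with under 500 bases in the island 7.58% were intermediate, against 5.14% of those with more and 4.28% of those wholly inside. The share thus fell with the overlap, and 368 intermediate windows were wholly inside an island.

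The neighbouring windows showed where these levels sit. Of 737 windows with both adjacent windows measured at the same coverage, 430 (58.3%) had 1 neighbour under 30% and 1 over 70%, so that the methylation stepped from low to high across them. The same step was found around 34.3% of island windows under 30% and 15.9% of those over 70%. Both neighbours were over 70% in 122 windows (16.6%) and under 30% in 33 (4.48%). At least 1 neighbour was itself between 30% and 70% in 152. For 1487 windows 1 neighbour was measured and for 408 none, so the flanks are known for a minority. In the vehicle control the mean level was 75.3% at 5 kb upstream, 44.3% in the adjacent upstream window, 49.5% in the windows themselves, 41.2% in the adjacent downstream window and 76.0% at 5 kb downstream, in the order of the chromosome. The mean hides a split, as 46.6% of the adjacent upstream windows were under 30% and 39.1% over 70%.

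**Figure D2:**
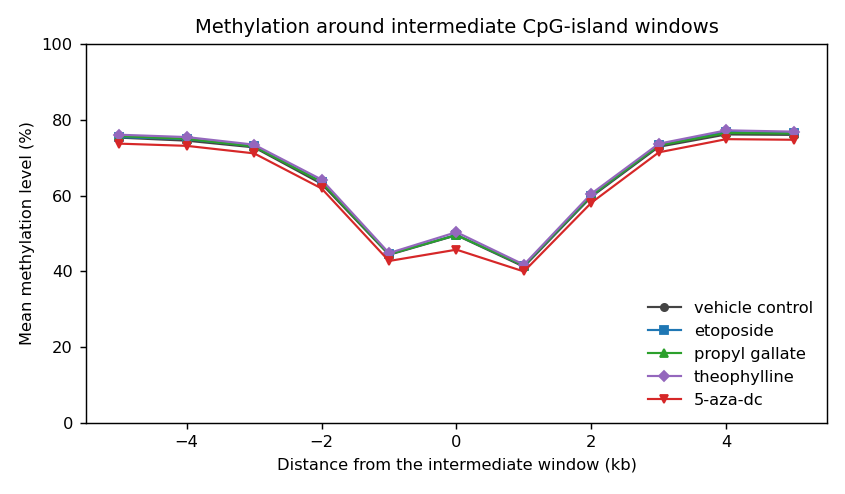
Mean methylation level (%) against distance in kb along the chromosome from the intermediately methylated window, for each of the 5 libraries, over 735 to 2632 windows per point. All libraries fell from between 73.7% and 76.9% at 5 kb to between 39.9% and 44.8% next to the window, and 5-aza-dc (red) was the lowest line at every distance.

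The longest runs were loci where methylation stayed intermediate over several kilobases. A run of 6 windows on chr7:157688001-157694000, with no symbol in the deposited table, lies inside PTPRN2 by RefSeq, a receptor-type phosphatase gene on the list of loci known to vary among iPSC lines. Its mean level was 45.7% in the vehicle control, 46.8% with etoposide, 44.5% with propyl gallate, 47.6% with theophylline and 41.8% with 5-aza-dc. A run of 4 windows lies 1 kb away on chr7:157683001-157687000. In that run the vehicle control (42.9%) and theophylline (42.1%) were lowest and propyl gallate (50.5%) highest. TWIST2, which encodes a bHLH transcription factor, had a run of 4 windows (chr2:238846001-238850000) at 53.8%, 57.0%, 56.3%, 54.8% and 51.6% in the vehicle control, etoposide, propyl gallate, theophylline and 5-aza-dc. GNAS, which encodes a stimulatory G protein subunit, had 4 windows in a row (chr20:58839001-58843000) at 53.6%, 58.6%, 51.1%, 55.1% and 50.3% in that order. Among the runs of 3 windows were those over MEST, over the start of SNURF and SNRPN, and at the start of MEG3 (chr14:100824001-100827000), a maternally expressed noncoding RNA. The MEG3 run was at 57.8%, 61.6%, 53.1%, 59.8% and 62.2%. Of the 9 runs of 3 or more windows, 4 thus were at known imprinted genes.

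The question of the study design was what each chemical does to methylation, and in these windows the libraries differed little on average except for 5-aza-dc. The mean level was 49.5% in the vehicle control, 49.6% with etoposide, 49.6% with propyl gallate, 50.3% with theophylline and 45.7% with 5-aza-dc. Relative to the vehicle control the difference was 0.106 percentage points for etoposide (95% counting interval 0.0127 to 0.199), 0.060 for propyl gallate (-0.0316 to 0.151), 0.821 for theophylline (0.728 to 0.913) and -3.81 for 5-aza-dc (-3.90 to -3.71). The SD of the differences between windows was 6.84 to 7.60 percentage points. The level was lower after 5-aza-dc in 1887 windows (71.7%), and 5-aza-dc was the lowest of the 5 libraries in 1294 (49.2%). The 4 libraries without 5-aza-dc differed from each other by at most 0.821 in the mean, and 5-aza-dc differed from each of them by 3.81 to 4.63. The etoposide sign was not stable, as it was -0.028 with a coverage minimum of 30. Since the vehicle control and 5-aza-dc both entered the average that chose the windows, the windows were chosen again on the 3 other libraries, and the 5-aza-dc difference was -3.85.

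In percentage points, the 5-aza-dc difference was -0.590 in islands under 30% (interval -0.600 to -0.580) and -1.12 in islands over 70% (-1.15 to -1.10). The vehicle control mean of these classes was 4.01% and 90.9%, and most windows of the low class could not fall by as much as the intermediate ones, so these values are not compared. Matched for level, 6817 windows between 30% and 70% outside islands fell by 2.40 on average. Their control level was 55.5%, and the median window had 417.4 calls per library against 1302.7 in the islands. Within bins of level the difference in islands and outside was -3.52 and -2.68 at 30% to 40%, -3.92 and -2.79 at 40% to 50%, -4.72 and -2.40 at 50% to 60%, and -3.10 and -2.17 at 60% to 70%. The counting intervals of islands and of all windows outside them did not overlap in any of the 4 bins. Over 30% to 70% island shores, the flanks of islands, had a mean of -3.19, shelves -2.44 and windows far from islands -2.17. Within the bins, from low to high level, shores had -3.30, -4.19, -3.17 and -2.63. The intervals of shores and islands overlapped at 30% to 40%, 40% to 50% and 60% to 70%. At 40% to 50% shores fell by more than islands. The part of coverage in the difference between islands and other windows was not tested.

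**Figure D3:**
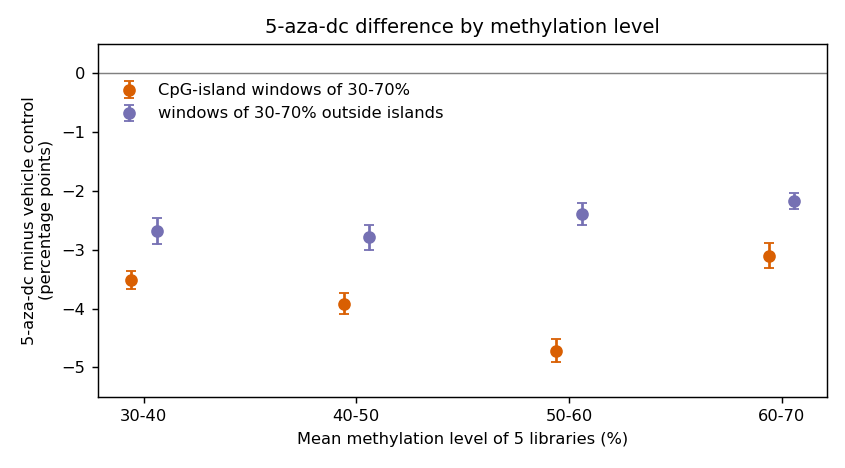
Difference in methylation level between 5-aza-dc and the vehicle control (percentage points) by mean level (%), for windows in CpG islands (orange) and outside them (violet), with bars for the 95% counting interval. In each of the 4 bins the island windows lay lower, by the widest margin at 50% to 60% (-4.72 against -2.40).

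The fall after 5-aza-dc was spread over the genome. The mean was lower on all 22 autosomes, from -6.55 on chromosome 13 (37 windows) to -1.66 on chromosome 10 (85 windows), whereas theophylline was lower on 2, etoposide on 10 and propyl gallate on 12. By annotated section it ranged from -3.45 in exons to -4.36. It was -3.91 where methylation stepped from low to high, -4.61 between low neighbours, -3.60 between high neighbours and -3.60 beside another intermediate window. It was -3.41 in windows wholly inside an island and -4.03 in those with under 500 bases inside. The mean was negative in each of these classes.

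Single windows were called where Fisher's exact test on the calls of 2 libraries, adjusted by Benjamini-Hochberg over all 288391 windows, gave an adjusted p under 0.01 and the level differed by at least 10 percentage points. After 5-aza-dc 410 windows (15.6%) were called lower and 58 (2.20%) higher. Of all windows 2.76% were called lower and 0.876% higher. After etoposide 130 were called lower and 139 higher, against 0.956% and 1.36% of all windows. Propyl gallate gave 128 lower and 123 higher (0.878% and 1.34% of all windows), and theophylline 112 lower and 163 higher (0.681% and 1.59%). Intermediate windows were thus called more often than all windows in each comparison and in both directions. They were also deeper, with a median of 1197 to 1448.5 calls against 398 to 499 over all windows, and the part of depth and of level in the number of calls was not tested. Windows of the same level outside islands were also called more often than all windows, with 9.34% called lower after 5-aza-dc and 1.86% higher. For etoposide their shares lower and higher were 3.04% and 3.04%, against 4.94% and 5.28% in the islands. For propyl gallate they were 2.86% and 3.07%, against 4.86% and 4.67%, and for theophylline 2.02% and 3.87%, against 4.26% and 6.19%. Without regard to the test, 19.7% of the intermediate island windows differed by at least 10 points between 5-aza-dc and the control. Of the windows of the same level outside islands 17.5% did. In 115 island windows (4.37%) 5-aza-dc lay at least 10 points below all 4 other libraries, and in 11 (0.418%) it lay at least 10 above. Outside islands this held for 252 (3.70%) and 33 (0.484%) of the 6817 windows. The other 4 libraries each stood 10 points below all others in 10 to 15 of the island windows.

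In some of the windows with the largest called differences the vehicle control stood apart. REC8, which encodes a meiotic cohesin subunit (chr14:24172001-24173000), was at 85.1% in the vehicle control, 35.4% with etoposide, 40.4% with propyl gallate, 53.8% with theophylline and 67.6% with 5-aza-dc. All 4 chemicals were called lower there, with an adjusted p of 3.1e-68 by Fisher's exact test for etoposide. PIK3IP1-DT (chr22:31290001-31291000) was at 92.7% in the vehicle control and between 47.0% and 59.8% in the other 4. When 1 library differs from the other 4 in this way, the control decides all 4 differences. KMT2CP5 (chr2:91685001-91686000), the gene assigned to the window, was at 98.6% with etoposide and 39.6% to 59.1% in the others, in a window that is annotated as intergenic, lies 28745 bases from KMT2CP5 and overlaps another pseudogene, DRD5P1, by RefSeq.

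CCND1, which encodes cyclin D1 (chr11:69643001-69644000), was at 73.1% in the vehicle control, 26.0% with etoposide, 64.99% with propyl gallate, 57.2% with theophylline and 41.1% with 5-aza-dc. MMP17, a matrix metalloproteinase gene (chr12:131831001-131832000), was at 82.0%, 56.3%, 42.3%, 77.1% and 36.4% in that order. In PLAAT5, a phospholipid acyltransferase gene (chr11:63490001-63491000), the levels were 85.6%, 81.8%, 48.6%, 43.0% and 31.4%, from 93 to 193 calls. TRRAP, a scaffold of histone acetyltransferase complexes (chr7:98879001-98880000), fell into a high pair of 81.7% in the vehicle control and 78.1% with propyl gallate, and a low group of 43.2% to 46.8%. In each of these genes at least 2 chemicals lay far below the vehicle control.

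In other windows 5-aza-dc was the lowest of the 5 libraries, often by a wide margin. The window at chr6:3053001-3054000, with no symbol, was at 50.9% in the vehicle control, 32.7%, 23.6% and 41.2% with etoposide, propyl gallate and theophylline, and 2.24% with 5-aza-dc. SMOX, which encodes spermine oxidase (chr20:4148001-4149000), was at 19.01% with 5-aza-dc and 58.3% to 74.4% in the others. The window at chr5:5886001-5887000 had 0 methylated of 84 calls after 5-aza-dc, which allows a level of up to 3.57%, and was between 37.7% and 76.7% in the others. CGAS, the cytosolic DNA sensor (chr6:73452001-73453000, promoter), was at 25.9% with 5-aza-dc and 43.9% in the vehicle control, below 65.9% to 78.6% after the other 3 chemicals. The ZFP42 window whose promoter is printed above was at 60.9% in the vehicle control, 56.3% with etoposide, 44.3% with propyl gallate, 59.96% with theophylline and 37.2% with 5-aza-dc. Of the other printed promoters, the GJD3-AS1 window was at 69.1% in the vehicle control and 41.7% with 5-aza-dc, and that of ATP6V1G1 at 58.3% and 35.04%, each with 5-aza-dc the lowest of the 5. The NPEPL1 window (chr20:58692001-58693000), whose promoter is not printed, fell by more than those of ZFP42 and ATP6V1G1, from 67.9% to 44.1%. There etoposide was lower still, at 40.2%. The next window of NPEPL1 was called higher after 5-aza-dc, at 33.0% against 13.9% in the vehicle control. Propyl gallate was also called lower in the ZFP42 window (-16.6 points) and in that of GJD3-AS1 (-14.3 points).

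Some windows hardly moved. A window on chr17:78427001-78428000, assigned to PGS1 from a distance of 48352 bases and over DNAH17 by RefSeq, ranged over 1.36 percentage points between 64.7% and 66.1%. CCND3, which encodes cyclin D3 (chr6:42049001-42050000), lay between 51.5% and 53.0% with 1733 to 2076 calls per library. For these windows the 5 levels differed by less than counting error. The spread of the 5 levels was set against counting error with Pearson's chi-square per degree of freedom, which is near 1 when calls are independent and counting error alone is present. Calls of 1 read or its copies are not independent, which raises the measure by an unknown amount, so it is used to rank classes and not as a test. Its median was 9.51 in intermediate windows (quartiles 4.21 and 19.6) and 6.95 without 5-aza-dc, against 2.82 in islands under 30%, 4.85 in islands over 70% and 3.02 in intermediate windows outside islands. The measure grows with the number of calls, which was lower in the last. The median gap between the highest and the lowest library was 10.5 percentage points in islands and 9.98 outside. How much of the spread is more than the dependence among calls cannot be told with 1 library per condition.

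Imprinted genes were the group fixed for loci where 1 parental copy is methylated. Of 126 island windows assigned to the list, 19 (15.1%) were intermediate, 70 were under 30% and 37 over 70%, against 5.82% intermediate among all island windows. The 19 windows belonged to 12 of the 52 genes with island windows. With genes within 5000 bases counted, 39 of 201 windows (19.4%) were intermediate. By RefSeq 17 more intermediate windows lie over listed genes that the deposited table gives to other genes or to none, among them 7 of GNAS, 2 of L3MBTL1 and 1 each of MEG3, SNRPN, H19 and INPP5F. The 5 windows that the deposited table assigns to H19 were between 86.5% and 92.1%, and the window it assigns to L3MBTL1 was at 90.6%, so these genes had intermediate and high windows.

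HYMAI is a noncoding RNA that shares its promoter with PLAGL1, which encodes a zinc finger transcription factor. Its window (chr6:144008001-144009000), which holds the promoter printed above, was at 36.6% in the vehicle control, 51.1% with etoposide, 43.4% with propyl gallate, 39.1% with theophylline and 33.6% with 5-aza-dc, with 4419 to 4897 calls. Etoposide was called higher (adjusted p = 5.0e-41, Fisher's exact test), and 5-aza-dc differed by -3.03. KCNQ1OT1 is a noncoding RNA read from within KCNQ1, a potassium channel gene. Its promoter windows were at 57.0%, 47.5%, 52.5%, 64.4% and 49.6% (chr11:2699001-2700000) and at 39.3%, 46.4%, 31.3%, 52.9% and 44.7% (chr11:2700001-2701000), in the order of the vehicle control, etoposide, propyl gallate, theophylline and 5-aza-dc. Theophylline was the highest in both, and the order of the other libraries differed between these adjacent windows.

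MEST encodes a hydrolase-like protein and is expressed from the paternal copy. The 3 windows there are assigned to its antisense MESTIT1. The window of the printed promoter (chr7:130491001-130492000) was at 58.3%, 52.8%, 52.6%, 48.5% and 55.7% in the same order, from 3509 to 4092 calls. Theophylline was the lowest library here but the highest in the windows on either side, with 55.9% in the downstream one. SNURF and SNRPN share a start in the Prader-Willi region, and the 3 windows around it averaged 34.1%, 32.8%, 29.4%, 36.5% and 35.9%. The printed SNRPN promoter lies in the least covered of them, with 210 to 447 calls, at 38.2%, 35.2%, 23.7%, 28.7% and 39.7%. NDN, in the same region, lay between 51.0% and 57.6%, and none of the 4 differences was called.

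NNAT encodes neuronatin, a small membrane protein, and its adjacent promoter windows went in opposite directions for propyl gallate. The first (chr20:37520001-37521000) was at 52.6%, 67.3%, 42.2%, 51.2% and 51.8% and the second (chr20:37521001-37522000) at 25.5%, 34.7%, 38.3%, 20.6% and 41.1%. The second was called higher after propyl gallate and after 5-aza-dc. The widest gap among the imprinted windows was in GNAS at chr20:58888001-58889000, which holds the printed GNAS promoter and which RefSeq but not the deposited table gives to GNAS. It was at 62.3% in the vehicle control, 77.6% with etoposide, 31.9% with propyl gallate, 31.4% with theophylline and 41.4% with 5-aza-dc, from 404 to 548 calls. All 4 differences were called there, 1 higher and 3 lower. The next window (chr20:58889001-58890000) was at 29.5%, 41.7%, 41.1%, 35.5% and 37.8%, with the vehicle control the lowest, so that the order of the libraries was not kept across 1 kb.

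AIRN, an antisense transcript of IGF2R, was at 57.4% in the vehicle control, 58.0% with etoposide, 50.5% with propyl gallate, 53.2% with theophylline and 47.4% with 5-aza-dc, and was the single window assigned to the list that was called lower after 5-aza-dc. ZNF331, a zinc finger gene, had windows at 57.0% and 52.4% in the vehicle control and at 53.0% and 54.8% with 5-aza-dc. GRB10, a growth factor receptor adaptor, was at 58.3% in the vehicle control, 63.2% with etoposide, 60.8% with propyl gallate, 46.9% with theophylline and 52.3% with 5-aza-dc, and the one difference called there was that of theophylline (-11.5 points). PPIEL, a pseudogene, was at 48.3% with etoposide and 64.7% to 72.8% in the other 4.

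Over the 19 windows the mean difference was 1.58 percentage points for etoposide (0.678 to 2.49), -1.28 for propyl gallate (-2.13 to -0.427), 0.842 for theophylline (-0.0154 to 1.70) and -1.26 for 5-aza-dc (-2.10 to -0.431). The median for 5-aza-dc was -2.30, against -3.56 over all intermediate windows and -0.637 over all windows of the table. The level was lower after 5-aza-dc in 14 of 19 windows, beside 71.7% of all intermediate windows. After 5-aza-dc 1 window (5.26%) was called lower and 1 (5.26%) higher, against 15.6% and 2.20% of all intermediate windows. The lowest of the 5 libraries was 5-aza-dc in 4 of the 19, against 49.2% of all intermediate windows. With the windows assigned by RefSeq added, 36 windows had a mean of 47.2% in the vehicle control, 51.6% with etoposide, 45.6% with propyl gallate, 48.2% with theophylline and 46.0% with 5-aza-dc. Etoposide was the highest library in 15 of the 36 and theophylline in 13. Propyl gallate was the lowest in 10, and theophylline and 5-aza-dc in 9 each. The levels of the 5 libraries varied more in the 19 windows than elsewhere, with a median chi-square per degree of freedom of 20.3, which was 19.8 without 5-aza-dc, and a median range of 13.9 percentage points. They were also deeper, at 1864.6 calls against 1299.2 in the other intermediate windows, and the share of depth in this was not tested.

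Homeobox and PAX genes, which pattern the embryo, were the list least often intermediate, and of the 7 lists they had the largest mean fall with 5-aza-dc. The list was set by the start of the gene symbol. It therefore also takes in TBX genes, antisense transcripts such as HOXD-AS2 and pseudogenes such as IRX1P1. Of their 512 island windows 14 (2.73%) were intermediate and 464 were under 30%. In the 14 windows the mean 5-aza-dc difference was -7.24 percentage points (-8.75 to -5.73) and the median -8.33, 13 were lower and 3 (21.4%) were called lower, against 15.6% of all intermediate windows. 5-aza-dc was the lowest library in 10. Of the 14 windows, 6 are annotated as intergenic, at 8559 to 65559 bases from the gene they are assigned to, NKX1-1 below among them. IRX2 (chr5:2749001-2750000) was at 60.02% in the vehicle control, 65.9% with etoposide, 61.9% with propyl gallate, 67.4% with theophylline and 47.0% with 5-aza-dc. NKX1-1 (chr4:1415001-1416000) was at 56.7%, 58.6%, 55.2%, 51.0% and 44.1%, and HOXD-AS2 (chr2:176139001-176140000) at 51.0%, 45.5%, 50.8%, 45.9% and 40.4%. These were the 3 windows called lower after 5-aza-dc, and 5-aza-dc was below the other libraries in each. LHX3 (chr9:136201001-136202000) was at 25.8% with 5-aza-dc and 31.2% to 33.9% in the others and was not called, since the difference was -8.13 points. IRX1P1 (chr13:24745001-24746000), the deepest of the 14 with 3128 to 4063 calls, hardly differed after 5-aza-dc, at 27.5% against 28.2% in the vehicle control. It was called higher after propyl gallate, at 39.5%. For the other 3 chemicals the list medians were -1.04, 2.40 and 0.680.

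Zinc finger genes, many of them in clusters on chromosome 19, held 77 intermediate windows of 946 (8.14%), in 63 genes. The mean 5-aza-dc difference was -2.95 (-3.45 to -2.46) and the median -1.34, 47 were lower, 13 (16.9%) were called lower and 1 higher. The called share was close to the 15.6% of all intermediate windows. ZSCAN18 (chr19:58118001-58119000), the deepest of these windows, was at 47.3% in the vehicle control, 48.4% with etoposide, 55.1% with propyl gallate, 53.0% with theophylline and 56.0% with 5-aza-dc, so that 5-aza-dc was the highest library. The windows of ZNF316 and ZNF778, the latter 30298 bases from its gene, also were higher by 2.08 and 1.75 points after 5-aza-dc, without being called. The fall was thus not shared by the deepest windows of this list.

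The remaining lists held few windows. Germline genes, which act in meiosis or in silencing of transposons in the germline, had 4 intermediate windows of 47, with 34 over 70%. All 4 were lower after 5-aza-dc (mean -4.33, median -3.58). None of the 4 was called after 5-aza-dc, against 15.6% of all intermediate windows called lower. PIWIL1, a germline Argonaute gene (chr12:130339001-130340000), was at 29.2% in the vehicle control, 42.2% with etoposide, 37.5% with propyl gallate, 29.8% with theophylline and 27.4% with 5-aza-dc. NANOS3, a germ cell RNA-binding protein gene, was at 59.3% in the vehicle control and 45.2% to 53.9% in the others. Loci known to vary among iPSC lines had 6 windows of 60, with a mean 5-aza-dc difference of -4.83 and a median of -6.35. Of these 4 were lower, and 1 (16.7%) was called lower, against 15.6% of all intermediate windows. That window is the IRX2 window described above. The etoposide mean was 3.53 (2.31 to 4.75). Among the 3 deepest windows CAT, which encodes catalase, lay between 48.8% and 57.2%. The PTPRN2 windows at chr7:158570001-158571000 and chr7:158569001-158570000 were higher by 2.01 and 4.38 points after 5-aza-dc, without being called. The clustered protocadherins, cell adhesion genes chosen at random by neurons, had 3 of 39. With etoposide they differed from the vehicle control by -4.26 on average, with propyl gallate by -4.23, with theophylline by -6.84 (-8.68 to -4.996) and with 5-aza-dc by -2.40, and all 3 were lower with etoposide and with theophylline. Families with near-identical copies, where reads may be placed on the wrong copy, had 16 of 238. Their mean level was higher than in the vehicle control with all 4 chemicals, by 3.25 with etoposide, 3.30 with propyl gallate, 2.77 with theophylline and 1.81 with 5-aza-dc (0.589 to 3.02). The 5-aza-dc median was 0.920, and 6 of the 16 were lower. Of the 3 deepest, DUX4L50 and FRG1HP differed by -4.00 and -4.65 points after 5-aza-dc and ANKRD20A21P by 0.831, without being called. No window of this list was called lower after 5-aza-dc, against 15.6% of all intermediate windows.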

How the data were processed

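DNA methylation was measured by RRBS in 5 libraries of human iPSCs, 1 per condition. Per the labels and methods, the authors trimmed the reads with Trim Galore 0.5.0, aligned them with Bismark 0.20.0, and used methylKit 1.10.0 to sum CpG calls over windows of 1000 bases, scale the coverage and merge the libraries on hg38. The deposited table holds counts for the vehicle control. For the other libraries the deposited calls are a score, since the authors multiplied the counts by a factor (1.18 for etoposide, 1.09 for propyl gallate, 1.15 for theophylline, 1.21 for 5-aza-dc) and rounded them. The factors were recovered from whole numbers missing among low coverages, and returned at least 99.94% of the coverages. The methylation level is the β-value, a fraction that the authors computed, used as deposited.

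Fisher's exact test (two-sided) was run on the recovered calls, not on the deposited ones as planned. Its code was checked on simulated data with independent calls. Such data cannot show how the test behaves when several calls come from 1 read or its copies. Differences are means over windows, with intervals from the binomial variance. The libraries held 188844639 to 228919184 calls in all windows. Promoters came from the RefSeq table of GRCh38.p14, and the motif was counted in these and not in whole windows because no genome sequence of this build was used here. The members and lists were chosen with earlier results of these data known. The genes named were drawn from the 3 called windows with the largest difference per chemical and all windows of the imprinted list. Also drawn on were 2 windows on each side of each bound, the 5 smallest and 5 largest ranges, and the 3 longest runs. The last source was up to 3 deepest windows of each other list. Not all of these windows are described in the text, and those left out include the windows of KCNQ1, MOV10L1, PCDHB18P, PCDHGC4 and PCDHA7. The other GNAS windows, the printed promoters of ZFP42, GJD3-AS1 and ATP6V1G1, NPEPL1, the other runs, and NKX1-1 and HOXD-AS2 were chosen after their values were seen. Python 3.11.15, numpy 2.4.6, pandas 2.3.3, scipy 1.17.1 and numba 0.67.0 were used.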

Additional observations from a re-analysis of the deposited data

How the results depend on the processing

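No paired analysis was possible because each condition had 1 library. In all, 73 alternative values were computed, and 40 stayed within the counting interval of the reported difference, or within 1.5 times the reported count. The number of windows was 1283 with a mean level of 40% to 60%. The etoposide difference of 0.106 changed sign to -0.028 with a coverage of at least 30 and to -0.00469 with a level of 40% to 60%, and was 0.221 with a coverage of at least 300, 0.339 with all calls pooled and 0.837 against the mean of the other 4 libraries. Propyl gallate gave 0.164 as a median over windows and 0.780 against the other 4. Theophylline gave 0.715 and 0.921 with a coverage of at least 30 and 300, 0.716 with a level of 40% to 60%, 1.14 pooled, 0.984 as a median and 1.73 against the other 4. For 5-aza-dc the difference was -4.30 with a level of 40% to 60%, -3.56 as a median and -4.05 against the other 4, and it was negative under every alternative run. Called windows in either direction, for etoposide, propyl gallate, theophylline and 5-aza-dc, were 682, 633, 677 and 982 at 5 percentage points, 24, 21, 20 and 28 at 25 points, and 2, 0, 0 and 4 with the calls divided by 10, which stands for calls that are not independent. At an unadjusted p under 0.05 with calls undivided, Fisher's exact test passed 1347, 1251, 1322 and 1549 of 2632 windows in the same order. The share of all windows passing at this threshold was not counted. At an adjusted p under 0.01 without a minimum difference, the test passed 28.69%, 27.77%, 28.95% and 40.54% of the intermediate windows. Of all windows it passed 10.12%, 10.26%, 10.99% and 13.99%. Counting genes within 5000 bases gave 39 imprinted, 7 protocadherin, 7 germline and 22 iPSC-variable windows in place of 19, 3, 4 and 6. The calls of single windows thus depend on how many calls are taken as independent, and without a second library per condition this cannot be measured here.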
